A study of Mus musculus with 27 samples.

Results

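The comparison set hepatocyte RNA of DBA/2J against that of C57BL/6J, the inbred mouse strains that were crossed to found the BXD panel of recombinant inbred lines. Its members are 6 of the 27 libraries of the series, chosen by the strain named in their labels: DBA/2J biological replicates 2, 3 and 4 and C57BL/6J biological replicates 1, 2 and 4. All came from female mice at 12 weeks of age, the tissue is labelled liver and the cell type hepatocytes, and the labels name no treatment or engineered allele in either strain. The series holds 9 inbred strains with 3 libraries each and also covers chromatin and DNA methylation. Poly(A) RNA was sequenced, and the deposited values are estimated counts per gene. Levels are given as CPM, counts relative to the library total after TMM scaling, which adjusts totals for differences in composition.

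C57BL/6J is the strain of the mouse reference genome, and DBA/2J is one of the oldest inbred strains. In the BXD lines every locus carries either the DBA/2J or the C57BL/6J allele, so a level that differs between these parents can be followed in the lines derived from them. The hepatocyte makes most plasma proteins, detoxifies drugs and hormones through cytochrome P450 enzymes and conjugating enzymes, exports bile, burns fatty acids and turns amino nitrogen into urea. Several gene families that serve these tasks, among them the major urinary proteins, the serpins and the P450 genes, stand in tandem clusters that differ between mouse strains.

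The 6 libraries held between 23890995 and 28647081 estimated counts, and each was most similar to another library of its own strain. Hepatocyte markers were abundant in all of them: albumin (Alb) alone took between 10.6% and 14.7% of the counts. Markers of other liver cells were low but present. The summed level of 14 Kupffer cell genes (liver macrophages) was 45.2 to 238 CPM in DBA/2J and 276 to 356 CPM in C57BL/6J, and that of 12 endothelial genes 87.5 to 236 CPM and 199 to 346 CPM. DBA/2J replicate 4 stood apart with the lowest of both sums, and its summed level of the mitochondrially encoded mRNAs was 28489 CPM against 58495 and 67572 CPM in the other DBA/2J libraries. C57BL/6J replicate 1 had the highest sum of immediate early genes, 211 CPM against 116 to 169 CPM in the other libraries. The main counts below are given also without these libraries. In bulk RNA, fewer cells of a type and less RNA per cell cannot be told apart.

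In edgeR's quasi-likelihood test on a fit to all 27 libraries, 1312 of 14482 tested genes (9.06%) differed between the parents at a Benjamini-Hochberg adjusted p under 0.05. Of these, 709 (4.9% of tested genes) were higher in DBA/2J and 603 (4.16%) lower. At least 2-fold differences made up 863 of the calls (5.96% of tested genes), 486 higher (3.36%) and 377 lower (2.6%). The libraries of the strains did not overlap for 3273 genes (22.6%). With DBA/2J replicate 4 and C57BL/6J replicate 1 both left out, 821 genes were called, 470 higher and 351 lower. The labels call the libraries biological replicates without naming the mice. The p-values rest on the spread between samples of a strain, estimated over all 27 libraries. A fit to the 6 libraries alone called 948 genes, 522 higher and 426 lower.

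The largest changes were ranked among called genes with non-overlapping libraries and a mean of 10 CPM or more in the higher strain. Mup genes, predicted genes, Rik clones and pseudogenes were passed over. In this ranking the 10 largest increases in DBA/2J included those of a serpin and of the proteases corin and cathepsin E. Serpina3c (ENSMUSG00000066361, chr12:104146382-104153870), a kallikrein-binding serine protease inhibitor, had 324, 288 and 228 CPM in the DBA/2J libraries and 0.581, 0.780 and 0.589 CPM in those of C57BL/6J. Corin (chr5:72300025-72504473), the membrane protease that activates atrial natriuretic peptide, had 56.7, 68.4 and 37.9 CPM in the DBA/2J libraries and 0.684, 0.411 and 0.463 CPM in those of C57BL/6J. Ctse (chr1:131638306-131675505), the aspartic protease cathepsin E, had 54.2, 50.8 and 33.1 CPM in the DBA/2J libraries and 0.649, 0.287 and 0.294 CPM in those of C57BL/6J. Each of the 3 was near 0 in every C57BL/6J library and high in every DBA/2J library, with log2 fold changes of 8.75 ± 0.29 (SE), 6.68 ± 0.38 (SE) and 6.75 ± 0.34 (SE). The highest edgeR adjusted p of the 3 was 2.98e-12, for Corin. Corin was higher in DBA/2J than in each of the 8 other strains, whose means for it reached at most 36.3 CPM outside C57BL/6J.

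Complement proteases and detoxifying enzymes stood beside them. C1s2 and C1rb, the second copies of the genes for the C1s and C1r proteases that start the classical complement pathway, averaged 39.7 ± 9.96 and 17.4 ± 4.85 CPM in DBA/2J (SD, n = 3) and 0.168 ± 0.00335 and 0.235 ± 0.226 CPM in C57BL/6J. Sult2a6, a sulfotransferase of the family that sulfates steroids and bile acids, was at least 104-fold higher, a bound against 3 counts because each C57BL/6J library held at most 1 count. Cyp2c39, a P450 of the arachidonic and retinoic acid oxidizing subfamily, had 499, 538 and 383 CPM in the DBA/2J libraries and 5.50, 6.24 and 5.64 CPM in those of C57BL/6J. In all 4 genes the strains did not overlap, and for Cyp2c39 C57BL/6J was the lowest of the 9 strains. Summed over both copies, C1r averaged 497 CPM in DBA/2J and 467 CPM in C57BL/6J, and C1s 483 and 545 CPM. The sum of the Sult2a genes averaged 409 CPM in DBA/2J and 580 CPM in C57BL/6J. Each of these sums overlapped between the strains. The remaining increases of the ranking were of H2-Q2, a class I histocompatibility gene (84.01-fold), and of Tpm3-rs7 and Eno1b. The last 2 resemble the tropomyosin gene Tpm3 and the enolase gene Eno1 (177-fold and 125-fold). The estimated counts of these genes were not whole in 3 or more of the 6 libraries, except Ctse, where they were whole, and Corin, so their levels are less certain; how their reads were divided was not tested.

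In the same ranking, with its floor of 10 CPM, the largest decrease was of Acpp (ENSMUSG00000032561, chr9:104288251-104337748), a secreted and membrane acid phosphatase that also acts as an ectonucleotidase. It had 0.0845, 0.151 and 0.0956 CPM in the DBA/2J libraries and 10.1, 21.8 and 24.4 CPM in those of C57BL/6J. It was at least 151-fold lower in DBA/2J, a bound against 3 counts per library. Ildr2 (chr1:166254139-166316823), a receptor of the endoplasmic reticulum and cell surface linked to lipid handling, had 2.62, 3.46 and 1.43 CPM in the DBA/2J libraries and 92.8, 113 and 117 CPM in those of C57BL/6J. DBA/2J had the lowest level of Ildr2 of the 9 strains, and the next lowest strain mean was 11.4 CPM. Nlrp12, a cytosolic sensor of the NOD-like receptor family, had 0.0422, 0.201 and 0.223 CPM in the DBA/2J libraries and 13.2, 11.3 and 11.7 CPM in those of C57BL/6J. All DBA/2J libraries lay below all C57BL/6J libraries for these genes, with edgeR adjusted p of 5.97e-07, 1.78e-12 and 5.43e-10.

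P450 enzymes and a nuclear import receptor were next. Cyp2a22 was 39.9-fold lower and Cyp2c23, which makes epoxides from arachidonic acid, 19.8-fold lower. Kpna2, an importin that carries proteins into the nucleus, had 0.507, 0.552 and 0.510 CPM in the DBA/2J libraries and 24.3, 23.7 and 24.4 CPM in those of C57BL/6J. Robo1, a guidance receptor for Slit ligands, fell from 12.2 ± 4.14 to 0.379 ± 0.267 CPM, St3gal6, a sialyltransferase, from 12.7 ± 2.28 to 0.721 ± 0.532 CPM, and Crim1, a membrane protein that binds bone morphogenetic proteins, from 11.5 ± 0.352 to 1.35 ± 0.625 CPM (SD, n = 3 each). Mug2, a murinoglobulin that traps proteases in plasma, fell from 1494 ± 259 to 175 ± 59.8 CPM. Crim1 was lowest in DBA/2J and highest in C57BL/6J of all 9 strains. Counts of Kpna2, Cyp2a22 and Mug2 were not whole in any of the 6 libraries, and Nlrp12, Ildr2, St3gal6, Crim1 and Corin overlap a gene on the opposite strand, which a kit not stated to keep strand cannot separate.

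**Figure D1:**
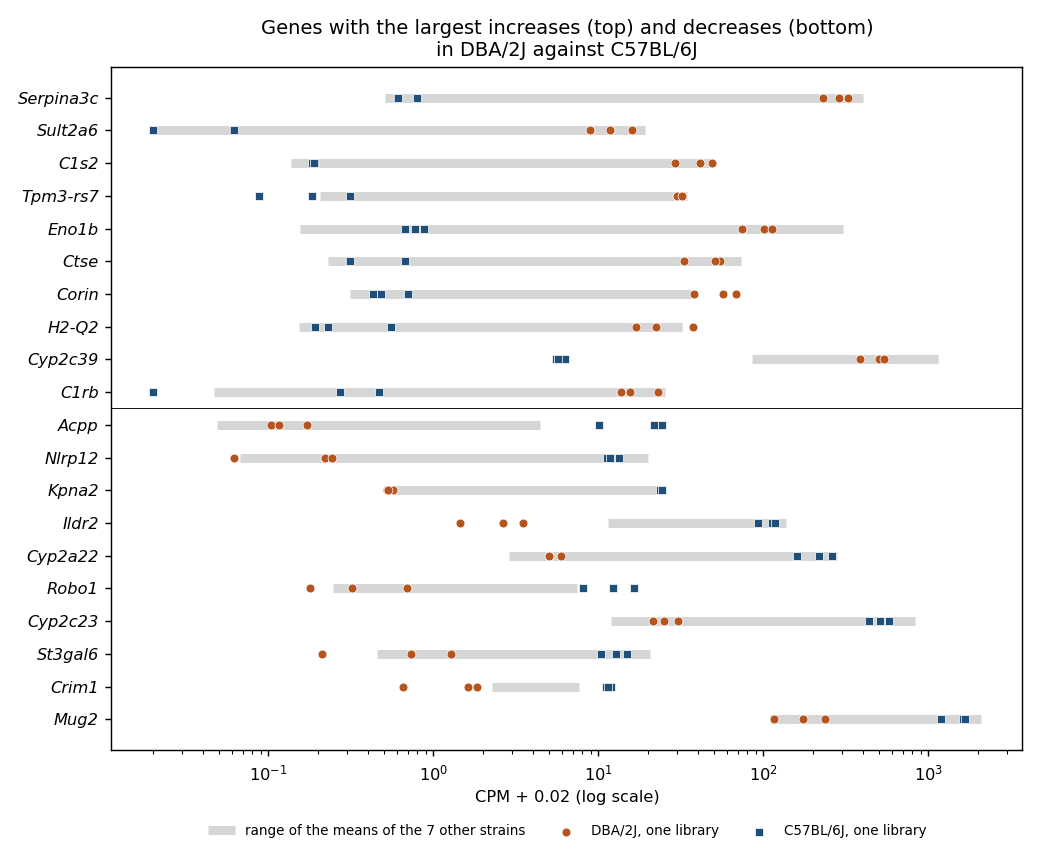
Level of the 10 largest increases (upper part) and 10 largest decreases (lower part) in the ranking with a floor of 10 CPM. Values are CPM plus 0.02 on a log scale, with a point for each DBA/2J and C57BL/6J library. A grey bar runs from the lowest to the highest mean of the 7 other strains. The points of the strains do not overlap for any of the 20 genes, and for Ildr2 and Crim1 all 3 DBA/2J points lie below the grey bar.

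Among the most abundant transcripts, several differed by a large number of CPM. Hamp2, a hepcidin gene, was 7.70-fold higher in DBA/2J, while Hamp, the hepcidin that limits iron export to plasma, was 2.83-fold lower. Summed over both genes the level was 3553 to 5404 CPM in DBA/2J and 1056 to 1709 CPM in C57BL/6J, so the sum was 3.42-fold higher with no overlap. Cyp2e1, the ethanol-oxidizing P450, had 5373, 4075 and 5051 CPM in the DBA/2J libraries and 8055, 9066 and 8842 CPM in those of C57BL/6J, and fell by 0.84 ± 0.18 (SE) on the log2 scale. Bhmt, which remethylates homocysteine with betaine, had 2379, 4066 and 3738 CPM in the DBA/2J libraries and 1097, 2104 and 1743 CPM in those of C57BL/6J, a log2 change of 1.04 ± 0.29 (SE), with an edgeR adjusted p of 0.0213. Bhmt was no longer called with both libraries that stood apart left out (edgeR adjusted p 0.277), and neither was Hamp (0.08). Cyp2e1 was not called in a fit to the 6 libraries alone (edgeR adjusted p 0.0732). Counts of Hamp2, Hamp, Cyp2e1 and Bhmt were not whole in any of the 6 libraries.

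Genes known to carry different alleles in these strains were read next, as a check of the labels. Nnt (ENSMUSG00000025453, chr13:119335448-119408997), the mitochondrial transhydrogenase that supplies NADPH and is partly deleted in C57BL/6J, had 156, 191 and 152 CPM in the DBA/2J libraries and 42.9, 37.4 and 36.2 CPM in those of C57BL/6J. Hc (chr2:34983331-35061438), the gene of complement component C5, which carries a disrupting deletion in DBA/2J, had 355, 341 and 288 CPM in the DBA/2J libraries and 752, 1418 and 1365 CPM in those of C57BL/6J. Alad (chr4:62509169-62519918), the second enzyme of heme synthesis, which is duplicated in DBA/2J, had 185, 185 and 256 CPM in the DBA/2J libraries and 94.9, 81.7 and 69.2 CPM in those of C57BL/6J. Each moved in the direction of the known allele without overlap between the strains, and the log2 fold changes were 2.10 ± 0.13 (SE), -1.84 ± 0.22 (SE) and 1.348 ± 0.17 (SE). Glo1, which detoxifies methylglyoxal and lies in a segment duplicated in DBA/2J, was 1.74-fold higher (0.80 ± 0.16 (SE) on the log2 scale), with counts that were not whole.

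Other genes with known strain differences also separated the parents. Apcs, serum amyloid P, a plasma pentraxin, had 708, 669.7 and 568 CPM in the DBA/2J libraries and 66.8, 175 and 149 CPM in those of C57BL/6J. Dhtkd1, a dehydrogenase of lysine breakdown with counts not whole in any library, had 187, 160.03 and 163 CPM in the DBA/2J libraries and 38.999, 53.8 and 64.3 CPM in those of C57BL/6J. Ifi202b, a cytosolic DNA-binding protein of the interferon-inducible p200 family, had 1.98, 2.81 and 0.446 CPM in DBA/2J and 0 counts in every C57BL/6J library, at least 14.9-fold higher against 3 counts. All DBA/2J libraries were above all C57BL/6J libraries in these genes. Ahr, the dioxin receptor, whose DBA/2J allele binds ligand less well, had 24.96, 16.6 and 19.99 CPM in the DBA/2J libraries and 29.98, 33.3 and 22.3 CPM in those of C57BL/6J and was not called (edgeR adjusted p 0.171). Cox7a2l, D2hgdh, Apoa2 and Myo5a were not called either, and Gpnmb, Tyrp1 and Klrd1 had too few counts to be tested, so 7 of the 12 tested genes of the allele list were called, against 9.06% of all tested genes; the list was made of genes known to differ between these strains.

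Interferon-stimulated genes encode antiviral effectors and sensors and are switched on when interferon binds its receptor. Of 38 such genes tested, 9 were higher in DBA/2J (4.9% of all tested genes were) and none lower (at an unadjusted edgeR p under 0.05, 19 were higher and 0 lower, and DESeq2 called 10 higher and 0 lower). The median log2 fold change of the list was 0.59 against 0.01 over all genes. Libraries of the strains did not overlap for 24 of the 38, against 22.6% of all genes. DBA/2J had the highest mean of the 9 strains for 22 of the 38, and over all tested genes it was highest in 6.11%. The summed level of the list was 871 to 1148 CPM in DBA/2J and 631 to 750.1 CPM in C57BL/6J. The called genes were Xaf1, Ifi44, Ifi27, Mx2, Isg15, Oasl1, Dhx58, Ifi35 and Ddx58. With both libraries that stood apart left out 4 were called, and edgeR adjusted p was 0.253 for Isg15, 0.309 for Ddx58, 0.118 for Ifi35, 0.0616 for Oasl1 and 0.0536 for Mx2. The number called was 6 without DBA/2J replicate 4 or without C57BL/6J replicate 4, and 12 with Kupffer and endothelial marker means as covariates.

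Promoter letters are shown for 4 members of the list. The sequences of 2 hold an exact match to the core letters of the interferon response element, and those of the other 2 hold no exact match. The 150 bases before the RefSeq start of each gene (GRCm38.p6, which is C57BL/6J sequence) are printed 5′ to 3′ on the strand of the gene, with capitals marking matches to GAAA followed by any 2 bases and GAAA, the core of the interferon-stimulated response element, on either strand; overlapping matches run together.
Isg15, chr4:156200819-156200968, minus strand: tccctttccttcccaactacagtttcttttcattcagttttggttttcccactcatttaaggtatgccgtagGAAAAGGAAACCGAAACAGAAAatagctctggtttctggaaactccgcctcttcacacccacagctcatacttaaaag
Ifit1, chr19:34640739-34640888, plus strand: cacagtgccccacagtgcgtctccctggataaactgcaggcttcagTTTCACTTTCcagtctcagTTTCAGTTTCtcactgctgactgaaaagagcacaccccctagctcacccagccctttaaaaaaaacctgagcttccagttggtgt
Xaf1, chr11:72301479-72301628, plus strand: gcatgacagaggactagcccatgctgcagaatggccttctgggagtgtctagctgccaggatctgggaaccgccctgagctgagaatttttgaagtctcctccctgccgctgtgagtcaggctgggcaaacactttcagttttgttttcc
Ifi44, chr3:151749911-151750060, minus strand: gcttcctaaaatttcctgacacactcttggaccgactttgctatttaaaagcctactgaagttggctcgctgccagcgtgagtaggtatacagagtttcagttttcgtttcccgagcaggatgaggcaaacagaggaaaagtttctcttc
Isg15 holds 3 overlapping matches, the first starting 78 bases before the start, and Ifit1 holds 2, starting 104 and 85 bases before it. Xaf1 and Ifi44, the called genes of the list with the largest log2 fold changes, hold no exact match in this window. Sequences that differ from the motif by a letter were not searched for.

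The motif was searched in windows from 250 bases before to 50 bases after the RefSeq start. It was present in 14 of the 27 list members with a sequence (51.9%) and in 1079 of the 27025 genes with a promoter sequence (3.99%). Of the 6 called members with a sequence, 2 held it: Isg15, and Ddx58, whose match starts after the start site. Oasl1 and Ifi35 held none, and no sequence was used here for Ifi27, Dhx58 and Mx2. A match is a run of letters in the C57BL/6J sequence and not a measured binding site.

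Xaf1, a cofactor of cell death induced by interferon, had 14.4, 16.9 and 16.2 CPM in the DBA/2J libraries and 1.47, 2.87 and 2.19 CPM in those of C57BL/6J. Ifi27, a mitochondrial protein, had 72.4, 96.3 and 66.5 CPM in the DBA/2J libraries and 30.4, 26.6 and 28.6 CPM in those of C57BL/6J. Ifi44 had 7.22, 10.2 and 6.69 CPM in the DBA/2J libraries and 1.95, 3.24 and 1.85 CPM in those of C57BL/6J. DBA/2J libraries were above all C57BL/6J libraries for each, and the log2 fold changes were 2.87 ± 0.33 (SE), 1.46 ± 0.25 (SE) and 1.78 ± 0.41 (SE), with edgeR adjusted p of 8.41e-07, 0.000233 and 0.00431. Isg15, a ubiquitin-like modifier, had 6.33, 11.05 and 12.1 CPM in the DBA/2J libraries and 3.62, 5.42 and 2.90 CPM in those of C57BL/6J, and Ifit1, which binds foreign RNA caps, 9.88, 16.1 and 19.7 CPM in the DBA/2J libraries and 5.71, 6.90 and 6.02 CPM in those of C57BL/6J. The libraries of the strains did not overlap for either, and Isg15 was called (edgeR adjusted p 0.0234) while Ifit1 was not (0.0673).

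Sensors of viral RNA were among the called genes. Dhx58 (LGP2) had 11.1, 18.1 and 15.3 CPM in the DBA/2J libraries and 6.39, 7.72 and 6.98 CPM in those of C57BL/6J, and Ddx58 (RIG-I) had 31.1, 32.6 and 38.1 CPM in the DBA/2J libraries and 22.5, 27.1 and 21.999 CPM in those of C57BL/6J. Oasl1, which inhibits translation of Irf7 mRNA, had 12.1, 17.4 and 14.98 CPM in the DBA/2J libraries and 6.29, 6.61 and 7.07 CPM in those of C57BL/6J. These 3 were higher in every DBA/2J library than in any C57BL/6J library and were 2.11-, 1.42- and 2.23-fold higher. Irf7, a transcription factor of the response, had 24.8, 42.4 and 29.6 CPM in the DBA/2J libraries and 20.3, 17.4 and 15.7 CPM in those of C57BL/6J. It did not overlap between the strains and was not called (edgeR adjusted p 0.101). Dhx58, Oasl1 and Ifi35 overlap genes on the opposite strand. For 8 of the 9 called genes the mean of the other 7 strains lay nearer C57BL/6J, by the test of their distance from the midpoint of the parents in the same edgeR fit, and Mx2 was the exception. Of all 1312 called genes, 17.3% were nearer C57BL/6J and 21.3% nearer DBA/2J by that test.

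**Figure D2:**
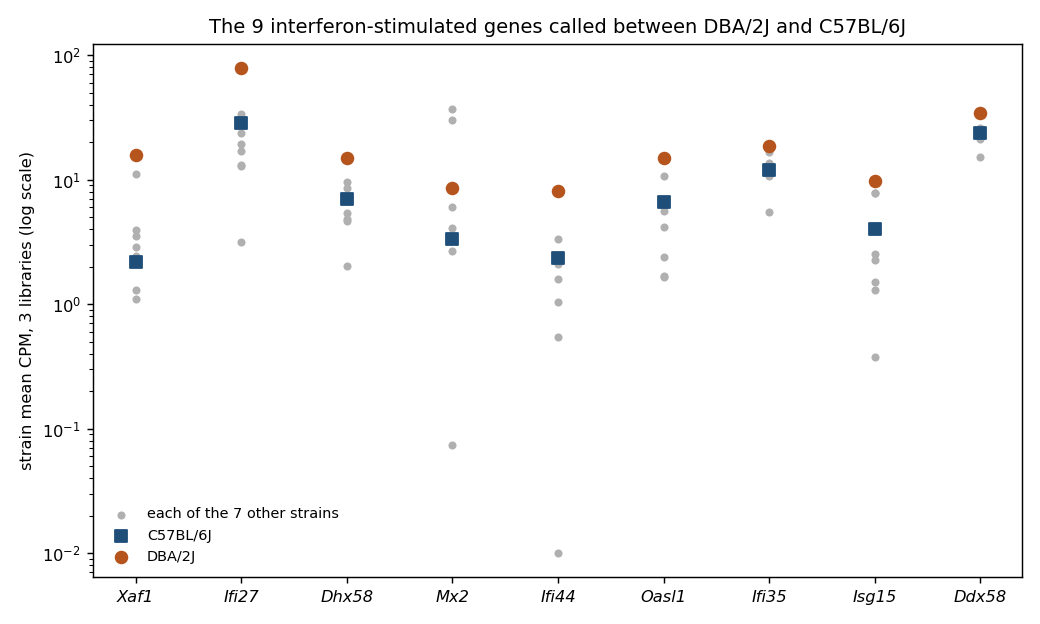
Strain mean of the 9 interferon-stimulated genes called between the parents, in CPM on a log scale, 3 libraries per strain, for DBA/2J, C57BL/6J and each of the 7 other strains. DBA/2J is the highest point for 7 of the 9 genes, and Ifi35 and Mx2 are higher in another strain; the lowest point of Ifi44 is 0.0101 CPM.

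Interferon-induced GTPases gave 1 call. Of 14 guanylate-binding protein and immunity-related GTPase genes tested, which defend cells against intracellular parasites, 1 was higher (4.9% of all tested genes were). It was Gbp11, with 83.1, 87.9 and 104 CPM in the DBA/2J libraries and 4.96, 7.68 and 6.77 CPM in those of C57BL/6J. All DBA/2J libraries were far above those of C57BL/6J, though the counts of Gbp11 were not whole in any library. The summed level of the 14 genes was 629.8 to 719.7 CPM in DBA/2J and 376 to 439 CPM in C57BL/6J, without overlap. The interferon-inducible apolipoprotein L genes Apol9a and Apol9b were 2.95- and 1.94-fold higher, and neither was called with both libraries that stood apart left out (edgeR adjusted p 0.119 and 0.208).

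Histocompatibility genes present peptides to T cells, and the strains carry different haplotypes of the complex. Of 29 class I, class II and antigen processing genes tested, 5 were higher in DBA/2J and 4 lower (4.9% and 4.16% of all tested genes were), and with the Kupffer and endothelial covariates 9 were higher and 2 lower. H2-K1 (chr17:33996017-34000347), a classical class I gene, had 224, 376 and 181 CPM in the DBA/2J libraries and 1605, 2048 and 2248 CPM in those of C57BL/6J. H2-Q7 had 29.1, 30.8 and 15.3 CPM in the DBA/2J libraries and 36.7, 82.003 and 92.5 CPM in those of C57BL/6J, and H2-Q4 had 104, 161 and 79.95 CPM in the DBA/2J libraries and 30.1, 57.1 and 57.2 CPM in those of C57BL/6J. H2-K1 and H2-Q7 were thus lower and H2-Q4 higher in every DBA/2J library, and H2-Q7 was not called with the covariates (-0.77 on the log2 scale, edgeR adjusted p 0.275). H2-Ea-ps, the class II alpha gene whose transcript is lost in C57BL/6J, had 0 counts in that strain and 4.69, 2.81 and 0.414 CPM in DBA/2J, at least 22.5-fold higher against 3 counts per library. Summed over the class I genes, the level was 2483 to 4515 CPM in DBA/2J and 4475 to 6663 CPM in C57BL/6J and overlapped. Counts of all class I genes named here were not whole in any library, and whether reads of the DBA/2J haplotype were assigned as fully as those of C57BL/6J was not tested.

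Complement proteins mark and lyse microbes, and the liver makes most of them. Of 34 of their genes tested, 6 were higher and 2 lower (4.9% and 4.16% of all tested genes were), and the list median was -0.18 on the log2 scale. Beside C1s2, C1rb and Hc above, C4a, a copy of the C4 gene, had 103, 114 and 79.8 CPM in the DBA/2J libraries and 4.58, 6.65 and 9.67 CPM in those of C57BL/6J, while the sum of C4a and C4b overlapped between the strains. Of the pore-forming terminal components, C6, C8a and C9 were 2.58-, 2.40- and 1.82-fold higher. Cfhr2, a factor H-related protein of plasma, had 177, 207 and 119.8 CPM in the DBA/2J libraries and 439, 653 and 704 CPM in those of C57BL/6J and was lowest in DBA/2J and highest in C57BL/6J of the 9 strains. With both libraries that stood apart left out 3 complement genes were called higher, and C6, C8a and C9 were not among them (edgeR adjusted p 0.0967, 0.0797 and 0.202); with the Kupffer and endothelial covariates 10 were higher, and without DBA/2J replicate 3 the number lower was 5.

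Plasma protease inhibitors and clotting factors gave further examples. Of 23 Serpina genes, 6 were higher and 2 lower, against 4.9% and 4.16% of all tested genes. The number lower was 1 with both libraries that stood apart left out, with the Kupffer and endothelial covariates, and in 5 of the 6 fits that left out a single library, and the number higher was 4 in a fit to the 6 libraries alone. Serpina1a, an alpha-1-antitrypsin gene, had 10141, 11034 and 9165 CPM in the DBA/2J libraries and 5819, 5736 and 5609.9 CPM in those of C57BL/6J, and its copy Serpina1d had 1986, 2214 and 1915 CPM in the DBA/2J libraries and 5374, 6816 and 7244 CPM in those of C57BL/6J. The copies moved in opposite directions without overlap, though Serpina1a was not called in the fit to the 6 libraries alone (edgeR adjusted p 0.0656), and the summed Serpina1 level, 23944 to 29034 CPM in DBA/2J and 26834 to 30202 CPM in C57BL/6J, overlapped. Serpina1e was 5.24-fold, Serpina11 3.48-fold and Serpina3m 2.47-fold higher, and the summed Serpina3 level was 1.69-fold higher with no overlap. Among 28 coagulation genes, F11 was 1.83-fold higher and F5 1.73-fold lower, and Tfpi, the tissue factor inhibitor, was 3.50-fold lower at a low level and not called with both libraries that stood apart left out (edgeR adjusted p 0.0989). Neither F11 nor F5 was called in the fit to the 6 libraries alone (edgeR adjusted p 0.0598 and 0.0713). Of 29 acute phase genes, Apcs and Serpina3m were higher.

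**Figure D3:**
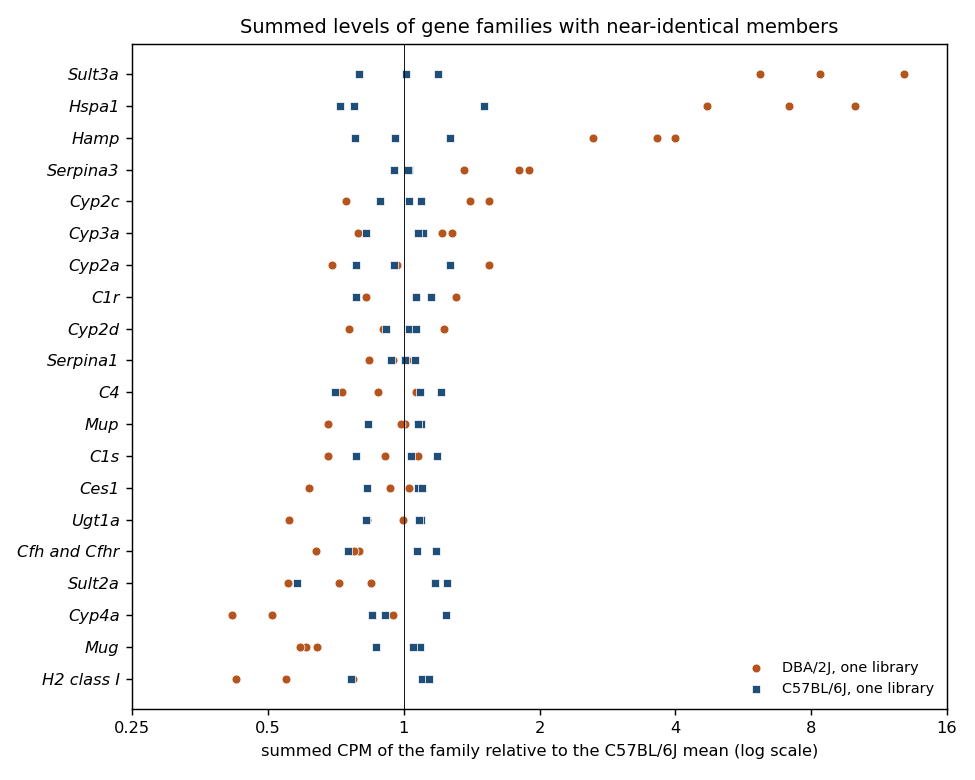
Summed CPM of families with near-identical members in each library, divided by the C57BL/6J mean, on a log scale; circles are DBA/2J libraries and squares C57BL/6J libraries. The Sult3a, Hspa1, Hamp and Serpina3 sums are higher in every DBA/2J library and the Mug sum lower, and the other 15 families overlap.

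Sums over a family do not depend on which of the summed copies a read was given to. Pseudogenes and predicted genes were not in the sums, so reads given to those were not counted. Of the 20 tested major urinary protein genes, whose products carry pheromones in urine, 5 were higher and 5 lower, against 4.9% and 4.16% of all tested genes. Mup19 averaged 5474 CPM in C57BL/6J and 0.262 CPM in DBA/2J, and Mup2 9.48 CPM and 3905 CPM. The summed Mup level was 23026 to 34102 CPM in DBA/2J and 28319 to 37041 CPM in C57BL/6J, so the sums overlapped. Mup2 and Mup19 were named after their values were seen. Sult3a1 and Sult3a2, amine sulfotransferases, were 8.16- and 25.8-fold higher, and their sum 9.11-fold.

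Enzymes of drug and hormone metabolism changed gene by gene. Of 59 P450 genes, 7 were higher and 6 lower, against 4.9% and 4.16% of all tested genes (11 and 5 with the Kupffer and endothelial covariates), and the summed level of the list overlapped between the strains. Cyp3a13 had 54.8, 58.6 and 41.4 CPM in the DBA/2J libraries and 185, 335 and 300.4 CPM in those of C57BL/6J and was lowest in DBA/2J of the 9 strains. Cyp4a32, of the fatty acid hydroxylating subfamily, had 138, 182 and 139 CPM in the DBA/2J libraries and 18.7, 17.9 and 23.7 CPM in those of C57BL/6J, and Cyp2c55 89.8, 139.8 and 19.6 CPM in the DBA/2J libraries and 10.2, 12.8 and 15.1 CPM in those of C57BL/6J. The Cyp2c55 level of DBA/2J replicate 4 was far below that of the other DBA/2J libraries but above all C57BL/6J libraries. Cyp2c38 was 2.83-fold higher. Summed Cyp2a, Cyp2c, Cyp2d, Cyp3a and Cyp4a levels all overlapped.

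Conjugating and other oxidizing enzymes were read in the same way. Of 31 glucuronosyltransferase and sulfotransferase genes, 8 were higher and 6 lower, against 4.9% and 4.16% of all tested genes. The Ugt1a genes share their last exons: Ugt1a1, which conjugates bilirubin, was 1.90-fold lower, Ugt1a5 4.16-fold lower, and Ugt1a9 3.52-fold higher, and the Ugt1a sum overlapped. The number of these genes called lower was 2 without DBA/2J replicate 4 or with the Kupffer and endothelial covariates, and 3 without both libraries that stood apart. Ugt1a1 was not called without both libraries (edgeR adjusted p 0.0615), in the fit to the 6 libraries alone (0.0631) or with the covariates (0.184, -0.53 on the log2 scale). Aox3, a molybdenum-containing aldehyde oxidase, had 53.2, 42.1 and 48.01 CPM in the DBA/2J libraries and 235, 257 and 239 CPM in those of C57BL/6J, and DBA/2J was the lowest of the 9 strains. The flavin monooxygenase Fmo4 had 25.6, 20.8 and 24.3 CPM in the DBA/2J libraries and 10.05, 10.3 and 10.2 CPM in those of C57BL/6J, and Fmo2 was 2.86-fold higher (edgeR adjusted p 0.000688, and 0.0552 with the covariates). Ces1b, a carboxylesterase, was 3.56-fold higher, and Aldh1b1, a mitochondrial aldehyde dehydrogenase, had 133, 220.4 and 179.8 CPM in the DBA/2J libraries and 69.3, 65.8 and 62.4 CPM in those of C57BL/6J. Of 22 glutathione transferase genes, Mgst3 and Gstp3 were higher, 1.94- and 2.34-fold. DESeq2, and edgeR without C57BL/6J replicate 2, each called 4 of these genes higher and 0 lower.

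Transporters of the hepatocyte membrane carry solutes between blood, cell and bile. Of 28 tested, 10 were lower in DBA/2J (4.16% of all tested genes were) and 2 higher, with a list median of -0.23 on the log2 scale. With the Kupffer and endothelial covariates 4 were lower and 4 higher. Abcc2, which exports conjugated bilirubin to bile, had 390.3, 298 and 239 CPM in the DBA/2J libraries and 628, 735 and 878 CPM in those of C57BL/6J. Abcg5, which with Abcg8 excretes sterols into bile, had 67.3, 63.4 and 52.5 CPM in the DBA/2J libraries and 142, 141 and 147 CPM in those of C57BL/6J, and Abcg8 had 90.8, 74.8 and 73.4 CPM in the DBA/2J libraries and 223, 155 and 173 CPM in those of C57BL/6J. For these 3 the DBA/2J libraries lay below all C57BL/6J libraries, with edgeR adjusted p of 8.61e-05, 0.000122 and 0.0045. Abcg5 and Abcg8 overlap on opposite strands, so their levels are uncertain.

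Further exporters and an uptake carrier were lower too. Abcc6, whose loss leads to calcification of soft tissue and which carries a splice variant in DBA/2J, had 177, 174 and 114 CPM in the DBA/2J libraries and 254, 369.7 and 434 CPM in those of C57BL/6J. Slc22a5, the carnitine carrier, had 24.03, 30.5 and 16.4 CPM in the DBA/2J libraries and 75.2, 38.02 and 56.8 CPM in those of C57BL/6J. The DBA/2J libraries were the lower ones in each. Abcb4, the phospholipid exporter of bile, and Abcg2 were 1.55- and 1.58-fold lower. Without DBA/2J replicate 4, 6 transporters were lower and 3 higher, and with both libraries that stood apart left out 5 were lower and 0 higher. No transporter was called higher by edgeR without C57BL/6J replicate 1 or without C57BL/6J replicate 2. Abcc2 and Abcg5 were still called without both libraries, and edgeR adjusted p was 0.0967 for Slc22a5, 0.109 for Abcg8, 0.28 for Abcb4 and 0.0601 for Abcg2.

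More fatty acid oxidation genes were lower in DBA/2J than higher. This pathway carries acyl groups into mitochondria and peroxisomes for breakdown, under control of the nuclear receptor PPAR-alpha. Of 39 tested genes, 9 were lower and 1 higher (4.16% and 4.9% of all tested genes were). A fitted log2 fold change below 0 was found for 34 of the 39 and for 48% of all tested genes, and the list median was -0.45. The summed level was 7040 to 8157 CPM in DBA/2J and 9746 to 14037 CPM in C57BL/6J, with no overlap. DBA/2J was the lowest of the 9 strains for 15 of the 39, and over all tested genes in 6.15%.

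Slc25a20 (ENSMUSG00000032602, chr9:108662088-108684641), the carnitine-acylcarnitine carrier of the mitochondrial membrane, had 52.95, 65.1 and 48.9 CPM in the DBA/2J libraries and 133, 99.5 and 110.2 CPM in those of C57BL/6J. Cpt1a, which commits acyl groups to mitochondria, had 236, 299.8 and 186 CPM in the DBA/2J libraries and 445, 417 and 585 CPM in those of C57BL/6J. The strains did not overlap in either, and the log2 fold changes were -1.04 ± 0.16 (SE) and -1.004 ± 0.23 (SE). Ppara itself had 32.5, 29.98 and 39.3 CPM in the DBA/2J libraries and 100.4, 55.9 and 70.4 CPM in those of C57BL/6J, with an edgeR adjusted p of 0.00592. Slc25a20 and Ppara were lowest in DBA/2J and highest in C57BL/6J of the 9 strains.

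Also called lower were Aldh3a2, Acaa1b, Eci2, Angptl4, an inhibitor of lipoprotein lipase, and Vnn1, a pantetheinase, and Acsm2 was higher. The number of fatty acid oxidation genes called lower was 4 without C57BL/6J replicate 1, 12 without C57BL/6J replicate 2, and 5 with the Kupffer and endothelial covariates. With both libraries that stood apart left out it was 2, with Slc25a20 among them, while Cpt1a (edgeR adjusted p 0.0552), Ppara (0.0704), Aldh3a2 (0.326), Acaa1b (0.211), Eci2 (0.0609), Angptl4 (0.159) and Vnn1 (0.526) were not called, nor was Acsm2 (0.176). C57BL/6J replicate 1, which had the highest sum of immediate early genes, also had the highest level of Slc25a20 and Ppara among the 6 libraries.

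Some genes of lipid storage and cholesterol synthesis were lower too. Of 22 lipid droplet genes, 4 were lower (4.16% of all tested genes were). Fitm1, which helps fat droplets bud from the endoplasmic reticulum, had 0.422, 0.803 and 0.319 CPM in the DBA/2J libraries and 6.08, 4.07 and 4.37 CPM in those of C57BL/6J. Its relative Fitm2 had 30.95, 36.5 and 25.5 CPM in the DBA/2J libraries and 75.2, 54.4 and 85.9 CPM in those of C57BL/6J. Plin2, the coat protein of hepatocyte droplets, had 117, 126 and 166 CPM in the DBA/2J libraries and 515, 191 and 319 CPM in those of C57BL/6J. DBA/2J libraries lay below all C57BL/6J libraries in all 3. Of 26 cholesterol genes, 3 were lower: Hmgcs1, an early enzyme of cholesterol synthesis (3.21-fold), Hsd17b7, a ketosteroid reductase of the same pathway (1.80-fold), and Mylip, which degrades the LDL receptor (3.27-fold). Hmgcs1 and Mylip were not called with both libraries that stood apart left out (edgeR adjusted p 0.0614 and 0.246), and without DBA/2J replicate 4 none of the 3 was. Pltp, the phospholipid transfer protein of plasma, had 11.7, 19.1 and 2.81 CPM in the DBA/2J libraries and 49.9, 62.5 and 85.3 CPM in those of C57BL/6J, with counts not whole in any library and an overlap with Ctsa on the other strand. Its log2 fold change was -2.57, and -1.46 with the Kupffer and endothelial covariates, where it was still called.

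Of 26 tested genes of glucose metabolism and its hormonal control, 2 were lower (4.16% of all tested genes were) and none higher; at an unadjusted edgeR p under 0.05, 2 were lower and 2 higher, and DESeq2 called 0 higher. In edgeR 1 was higher with the replicate block, in the 6 libraries alone, without C57BL/6J replicate 1 and with both libraries that stood apart left out. The lower ones were Igfbp1 and Pck2, the mitochondrial phosphoenolpyruvate carboxykinase, which was 2.21-fold lower and not called with both libraries that stood apart left out (edgeR adjusted p 0.073). Igfbp1, an insulin-repressed binding protein of insulin-like growth factors, had 16.98, 43.2 and 46.3 CPM in the DBA/2J libraries and 373, 288 and 83.2 CPM in those of C57BL/6J. Every C57BL/6J library was above every DBA/2J library, and the level varied widely within both strains. Of 31 nuclear receptor genes 1 was higher and 2 lower, and with both libraries that stood apart left out 1 was lower and 0 higher in edgeR. Nr1i3 (CAR), which induces drug-metabolizing enzymes, had 128, 132 and 93.2 CPM in the DBA/2J libraries and 220.2, 246 and 318 CPM in those of C57BL/6J. Of 19 bile acid genes 2 were called, of 27 lipogenesis genes 1 and of 21 clock genes 1, against 9.06% of all tested genes. EdgeR called 1 bile acid gene and no lipogenesis or clock gene when both libraries that stood apart were left out. Without C57BL/6J replicate 1 alone, it called 3 lipogenesis genes lower and 0 higher. Cyp39a1, an oxysterol hydroxylase of bile acid synthesis, was 3.36-fold lower.

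Among genes of the urea cycle and amino acid breakdown, those called were higher in DBA/2J. The liver takes the nitrogen of amino acids into urea and breaks their carbon skeletons down. Of 44 genes tested, 12 were higher (4.9% of all tested genes were) and none lower. At an unadjusted edgeR p under 0.05, 17 were higher and 2 lower, and DESeq2 called 13 higher and 2 lower. The list median was 0.33. The summed level was 24284 to 30345 CPM in DBA/2J and 18278 to 22918 CPM in C57BL/6J, with no overlap.

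Of the urea cycle, Ass1, which joins citrulline and aspartate, had 2387, 2791 and 2986 CPM in the DBA/2J libraries and 1336, 1922 and 1779.96 CPM in those of C57BL/6J. Slc25a15, the ornithine carrier, had 578, 545 and 559 CPM in the DBA/2J libraries and 274, 400.2 and 305 CPM in those of C57BL/6J, and Nags, which makes the activator of Cps1, 48.01, 55.2 and 67.9 CPM in the DBA/2J libraries and 42.2, 37.9 and 41.1 CPM in those of C57BL/6J. Cps1, the entry enzyme, averaged 6028 ± 438 CPM in DBA/2J and 4345 ± 1540.3 CPM in C57BL/6J (SD, n = 3) and was not called (edgeR adjusted p 0.25). In the first 3 genes the DBA/2J libraries were the higher ones, by 1.41- to 1.72-fold. Of sulfur amino acid metabolism, Cth, which makes cysteine, had 471, 503 and 563 CPM in the DBA/2J libraries and 215, 300.01 and 231 CPM in those of C57BL/6J, and Cbs was 1.497-fold higher. Bckdhb, a subunit of branched-chain ketoacid dehydrogenase, had 70.3, 75.5 and 99.9 CPM in the DBA/2J libraries and 41.2, 42.3 and 35.1 CPM in those of C57BL/6J, and Gldc, Uroc1, Ftcd and Gls2, which break down glycine, histidine and glutamine, were 1.53-, 1.46-, 1.42- and 1.44-fold higher.

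The count of 12 depended on the libraries and the fit. It was 6 without DBA/2J replicate 4, 7 without DBA/2J replicate 3, C57BL/6J replicate 2 or C57BL/6J replicate 4, and 4 without both libraries that stood apart. It was 3 in a fit to the 6 libraries alone, 5 with the Kupffer and endothelial covariates, and 7 with no filter on low counts. With the covariates 3 genes of the list were called lower, and without DBA/2J replicate 4 2 were. Dhtkd1 and Bckdhb were still called without both libraries, and Cth (edgeR adjusted p 0.0988), Slc25a15 (0.0515), Ass1 (0.357), Nags (0.141), Gldc (0.0523), Ftcd (0.197) and Gls2 (0.222) were not.

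**Figure D4:**
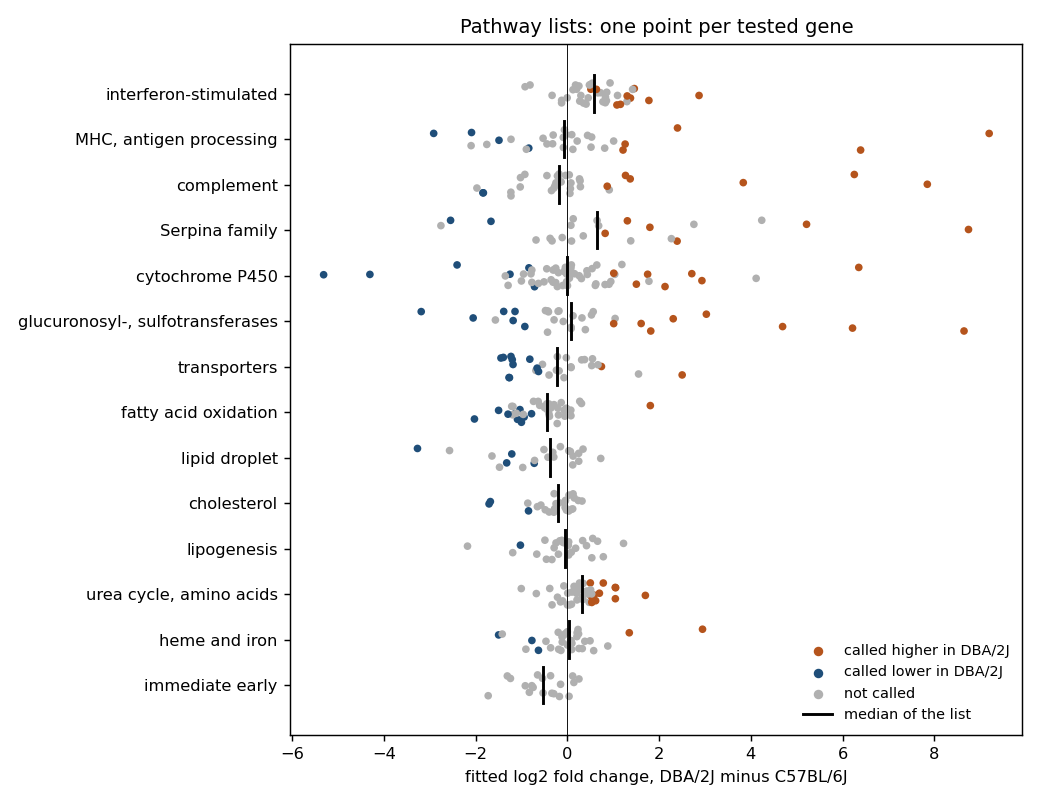
Fitted log2 fold change (DBA/2J minus C57BL/6J) of each tested gene in 14 lists, with called genes coloured and the median of each list as a black bar. The interferon list has a median of 0.59 and 9 genes called higher, the fatty acid oxidation list a median of -0.45 and 9 called lower, and the urea and amino acid list a median of 0.33 and 12 called higher.

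Heme and iron genes and chaperones were read in the same way. Of 32 heme and iron genes 5 were called, against 9.06% of all tested genes: Alad and Hamp2 were higher and Hamp, Cpox and Blvrb lower. With both libraries that stood apart left out, and in the fit to the 6 libraries alone, 1 was lower; the edgeR adjusted p of Blvrb was 0.0496, and 0.111 without both libraries, and that of Cpox was 0.0769 in the 6 libraries alone. Cpox, a later enzyme of heme synthesis, had 82.3, 84.3 and 87.3 CPM in the DBA/2J libraries and 147, 120.2 and 126 CPM in those of C57BL/6J. Of 26 genes of the unfolded protein response and its chaperones 1 was higher and 3 lower (4.9% and 4.16% of all tested genes were), and with both libraries that stood apart left out edgeR called 1, which was lower. The inducible chaperone Hspa1b had 58.2, 41.3 and 27.9 CPM in the DBA/2J libraries and 4.34, 8.71 and 4.42 CPM in those of C57BL/6J, and the constitutive Hspa8 267, 307 and 312 CPM in the DBA/2J libraries and 643, 883 and 539 CPM in those of C57BL/6J. Hspa1b was higher and Hspa8 lower in every DBA/2J library, but neither was called with both libraries that stood apart left out (edgeR adjusted p 0.143 and 0.0543). No immediate early gene was called in edgeR among 19 tested (2 were lower at an unadjusted p under 0.05, and DESeq2 called 1 lower), and the list median was -0.53. In edgeR 1 was called lower with no filter on low counts, in the 6 libraries alone, without DBA/2J replicate 4 and without C57BL/6J replicate 2.

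Markers of other liver cells were set against the shares over all tested genes, of which 4.9% were higher and 4.16% lower. All 14 Kupffer cell genes had fitted values below 0 (list median -1.03), and 1 was called lower, Folr2, a folate receptor of macrophages, with 0.127, 0.854 and 0.0956 CPM in the DBA/2J libraries and 8.99, 7.76 and 6.14 CPM in those of C57BL/6J. Clec4f, the defining Kupffer lectin, averaged 27.4 ± 17.8 CPM in DBA/2J and 60.9 ± 6.18 CPM in C57BL/6J (SD, n = 3) and was not called. At an unadjusted p under 0.05, 10 of the 14 were lower, and the number called was 5 with no filter on low counts and 6 without DBA/2J replicate 3. Of 12 endothelial markers edgeR called none, with 8 lower at an unadjusted p under 0.05 and 0 called by DESeq2, and 6 were called lower with no filter. Of 11 stellate cell markers 1 was called, Reln, 3.14-fold higher, and 5 had fitted values below 0. Of 3 bile duct cell markers tested, 2 were lower, Spp1, with 0.169, 0.653 and 0.606 CPM in the DBA/2J libraries and 5.09, 5.83 and 5.55 CPM in those of C57BL/6J, and Pkhd1, with 8.36, 8.34 and 6.66 CPM in the DBA/2J libraries and 10.4, 14.4 and 13.8 CPM in those of C57BL/6J; Pkhd1 overlaps a gene on the opposite strand and was not called without both libraries that stood apart (edgeR adjusted p 0.0591) or with the covariates (0.315). Of 5 erythroid markers tested, 4 had fitted values below 0 (list median -2.93) and 1 was called, the alpha globin gene Hba-a2. It had 0, 0 and 0 CPM in the DBA/2J libraries and 8.85, 3.20 and 2.57 CPM in those of C57BL/6J, at least 39.2-fold lower in DBA/2J against 3 counts per library. Hba-a2 was not called without both libraries (edgeR adjusted p 0.0628) or with the covariates (0.0853). The summed erythroid level was 6.42 to 15.2 CPM in DBA/2J and 13.9 to 36.3 CPM in C57BL/6J and overlapped. Among the genes named above with more than 3 counts in a library of each strain, the covariates also moved the log2 fold change toward 0 by over 1.5-fold for St3gal6 (from -4.22 to -3.46), H2-K1 (-2.92 to -2.31), Mylip (-1.71 to -0.87), Tfpi (-1.81 to -0.98) and Folr2 (-4.52 to -3.22). They moved it away from 0 by as much for Corin (from 6.68 to 7.33), Nlrp12 (-6.21 to -7.00), Ifi27 (1.46 to 2.05), Ifi44 (1.78 to 2.37), H2-Q4 (1.26 to 1.88) and Cyp2c55 (2.71 to 3.56). Of all these, Mylip was no longer called (edgeR adjusted p 0.0876). Folr2 is itself 1 of the 14 Kupffer genes averaged in the covariate, so its move toward 0 is not a separate result. Whether these levels take part in the lists above was tested only through the Kupffer and endothelial covariates.

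The other 7 strains were set against the midpoint of the parents. Over all tested genes their mean lay off it in 2904 (20.1%). Of the 1312 genes called between the parents, the mean of the other strains lay off the midpoint in 506 (38.6%), nearer DBA/2J in 279 (21.3%) and nearer C57BL/6J in 227 (17.3%). Among genes not called between the parents it lay off the midpoint in 2398 of 13170 (18.2%). Nnt, H2-K1 and Cyp2c39 were on the side where the other strains lay near DBA/2J, and Corin, Aox3 and Hamp2 on the side where they lay near C57BL/6J. Without DBA/2J replicate 4 and C57BL/6J replicate 1, 201 and 163 genes were on these sides. The order of the sides turned with the Kupffer and endothelial covariates, with 163 nearer DBA/2J and 218 nearer C57BL/6J, and without DBA/2J replicate 4, with 197 and 231. Without C57BL/6J replicate 4 the numbers were 188 and 146.

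Calls were not spread evenly over kinds of gene. Of protein-coding genes 8.55% were called, 561 higher and 535 lower. Of processed pseudogenes, which are copies of spliced mRNAs, 18.5% were called, 77 higher and 9 lower in DBA/2J, and 64 of these calls exceeded 32-fold. Of 182 other pseudogenes 22.5% were called, 32 higher and 9 lower. Counts were not whole in any of the 6 libraries for 38.9% of processed pseudogenes, 45.6% of other pseudogenes and 16.1% of protein-coding genes. Over all genes with whole counts in the 6 libraries 7.7% were called, 382 higher and 337 lower. The genome to which the reads were assigned is not given beyond the build names, and its part in these calls was not tested.

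Along the genome (GRCm38), the share of tested genes called was 12.7% on chromosome 4, 11.4% on chromosome 1 and 4.49% on chromosome X. Chromosome Y had 4 tested genes, of which 3 predicted genes were called, 1 higher and 2 lower, though the labels give all mice as female, and how these reads were assigned was not tested. Of 15 tested genes of the mitochondrial genome 2 were called. With both libraries that stood apart left out the shares on chromosomes 4, 1 and X were 7.94%, 7.42% and 2.8%, and with no filter on low counts, which adds genes to the total, 7.82%, 5.54% and 2.6%. Of 187 intervals of 10 Mb with at least 30 tested genes, 5 held no call, and the median share was 8.57%. The highest share, 33.3% of 57 genes, was at 60 to 70 Mb of chromosome 4, which holds the Mup cluster and Alad. Next was 160 to 170 Mb of chromosome 1, with 29% of 69 genes, among them Fmo2, Fmo4, Ildr2, F5, Mgst3 and Hsd17b7. Genes in such an interval share a stretch of chromosome and are not independent.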

How the data were processed

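The deposited table holds estimated counts per gene, a column per library, per the file headers; values were not whole in 10.95% of cases in the 6 libraries. The submitters' processing notes name FastQC 0.11.5, DESeq2, GRCm38 and mm10 without their roles, and the aligner, the counting tool and the genome used for DBA/2J reads are not given in the sources used here. Estimated counts were rounded to whole numbers. Genes were filtered with filterByExpr, totals scaled by TMM, and strain fitted as the only factor over all 27 libraries in edgeR 4.0.16 (R 4.3.3, limma 3.58.1), with 18 residual degrees of freedom. The contrasts were DBA/2J minus C57BL/6J, and the mean of the 7 other strains minus the midpoint of the parents. The SE of a log2 fold change was its absolute value divided by the square root of the F statistic of the quasi-likelihood test. It is therefore approximate, above all for genes near 0 counts in a strain. P-values were adjusted over all 14482 genes by Benjamini and Hochberg's method. The test was also run on simulated data, and the outcome is not given here. CPM of 1 count was 0.0319 to 0.0502 over the 6 libraries.

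Named genes were the 10 largest increases and 10 largest decreases by fitted log2 fold change among called genes with non-overlapping libraries and a mean of 10 CPM or more in the strain with more (passing over predicted genes, Rik clones, pseudogenes and Mup genes), the 10 largest absolute differences in CPM under the same exclusions, up to 4 called members per list and direction by lowest adjusted p with any further member a sentence needed, all genes of the allele list, and defining cell markers. The members and all gene lists were chosen with earlier results of these data known, and list members are described by counts with no test of the list. Gene positions are from GENCODE M21 on GRCm38, and promoter sequences from RefSeq. Replicate numbers do not pair the mice in the labels. The alternatives were DESeq2 1.42.0, median-of-ratios size factors, no filter, a mean of at least 10 counts, a replicate block, the 6 libraries alone, a GC trend, marker covariates and each library left out; leaving out both libraries that stood apart was added after seeing the data.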

Additional observations from a re-analysis of the deposited data

How the results depend on the processing

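With both libraries that stood apart left out (DBA/2J replicate 4 and C57BL/6J replicate 1, chosen after seeing the data), 821 genes were called, 470 higher and 351 lower, 4816 lay off the midpoint (2904 in the fit reported), and list counts were 4 interferon-stimulated genes higher, 5 transporters lower, 2 fatty acid oxidation genes lower and 4 urea and amino acid genes higher; fewer samples entered that fit. The Kupffer and endothelial covariates gave 163 called genes nearer DBA/2J, 4 transporters and 5 fatty acid oxidation genes lower and 5 urea and amino acid genes higher, and moved the share of calls that were higher from 54% to 60.2% (750 higher and 496 lower). The urea and amino acid count was 7 with no filter and 3 in the fit to the 6 libraries alone. The causes were not tested. Leaving out 1 library at a time gave 995 to 1194 genes called, 1904 to 3776 off the midpoint, 188 to 319 nearer DBA/2J, 146 to 231 nearer C57BL/6J, 6 to 10 interferon-stimulated genes, 6 to 10 transporters, 4 to 12 fatty acid oxidation genes and 6 to 11 urea and amino acid genes. The other counts over all genes stayed within 1.5 times, from 948 called with the 6 libraries alone to 1529 with DESeq2. Among uncalled allele genes the fitted log2 value changed sign for Myo5a (0.23 with covariates, 0.55 without both libraries, -1.19 to 0.15 without 1), Apoa2 (0.37, 0.18, and -0.29 to 0.17), Cox7a2l (-0.29 to 0.13 without 1) and D2hgdh (-0.029 with covariates). The rules for the largest changes, the largest CPM differences, the lists and the allele genes picked 129 called genes. Not all of these are named above, and some called genes named above, such as Isg15 and Ass1, are not among them. Of the 129, 74 kept direction and call under every alternative and none changed direction, and 106 were called in the fit to the 6 libraries alone. Same-numbered libraries did not deviate together (correlations of 0.085 for number 2 and -0.252 for number 4). The replicate block gave 1171 calls, 632 higher and 539 lower, with 120 of the 129 genes picked by these rules still called.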

Other observations

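Trim genes of 1 cluster on chromosome 7 moved in opposite directions between the strains. They encode tripartite motif proteins, some of which restrict retroviruses, and were chosen here after their values were seen. In DBA/2J, Trim30d averaged 0.132 CPM against 4.59 CPM in C57BL/6J, Trim12a 0.84 against 6.88 CPM, Trim5 0.141 against 1.37 CPM and Trim34a 3.08 against 5.66 CPM. Trim12c averaged 15.8 CPM in DBA/2J against 8.79 CPM in C57BL/6J, Trim6 1.22 against 0.223 CPM and Trim34b 1.78 against 0.0228 CPM. All 7 were called in edgeR, with adjusted p from 1.2e-07 for Trim5 to 0.022 for Trim12c, while Trim30a (1.86 against 3.83 CPM) was not, at 0.159. Copies in the cluster resemble each other, so reads may be divided between them.

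Single genes outside the lists also separated the parents. Rassf4, an adaptor of the Ras association family, averaged 73.8 ± 19.2 CPM (SD, n = 3) in DBA/2J and 3.72 ± 0.454 CPM in C57BL/6J. Hdhd3, which lies beside Alad, averaged 29.7 ± 12.6 CPM in DBA/2J and 10.3 ± 1.32 CPM in C57BL/6J. The zinc finger genes Zfp982 and Zfp984 had no count in any DBA/2J library and averaged 1.16 and 1 CPM in C57BL/6J. All 4 were called in edgeR, with adjusted p of 1.5e-07 for Rassf4, 0.00079 for Hdhd3, 0.00055 for Zfp982 and 0.0015 for Zfp984.

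Among the mitochondrially encoded mRNAs, all 13 had fitted values below 0, and mt-Nd2 and mt-Nd3, subunits of respiratory complex I, were called lower; over all tested genes 48% had fitted values below 0 and 4.16% were called lower. The summed level of the 13 mRNAs was 28489 to 67572 CPM in DBA/2J and 45567 to 83382 CPM in C57BL/6J and overlapped. Levels of mt-Nd3 were 164, 194 and 129 CPM in the DBA/2J libraries and 213, 350.4 and 393 CPM in those of C57BL/6J. The DBA/2J libraries lay below all those of C57BL/6J, and mt-Nd3 was still called with both libraries that stood apart left out (edgeR adjusted p 0.0457), while mt-Nd2 was not (0.108). Neither was called with the Kupffer and endothelial covariates (edgeR adjusted p 0.238 for mt-Nd3), in the fit to the 6 libraries alone (0.0526), with the GC trend removed, or without DBA/2J replicate 4, C57BL/6J replicate 2 or C57BL/6J replicate 4. The call of mt-Nd3 also ended without DBA/2J replicate 2. The counts of both were not whole in any library.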
